A study of Mus musculus with 89 samples.

Results

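Imprinted genes outside the H19, Dlk1, Igf2r and Kcnq1 domains were followed in mouse embryonic stem cells (ESCs) that lost Esrrb, Nr5a2 or both. The members were chosen by symbol from a list of textbook imprinted genes, and 39 of the 54146 genes in the table belong to it. In mouse tissues 22 of them are known to be expressed from the paternal allele, 15 from the maternal allele, and 2 (Grb10 and Gnas) from either allele according to tissue or promoter. The members were chosen with earlier results of these data known, so their shares beside those of all genes are descriptive. The RNA-seq series holds 20 libraries of stranded, polyA-selected RNA in 8 groups, 4 states in each of 2 media. In EKOiE ESCs the endogenous Esrrb gene is knocked out and Esrrb is supplied by a transgene that doxycycline switches on. EKOiE cells kept with 1 µg/ml doxycycline are called +E+N, and EKOiE cells kept without it for 2 days are called −E. EKOiE NrKO cells, a derived line in which the exon for the DNA-binding domain of Nr5a2 is disrupted on both alleles, are called −N with doxycycline and −E−N after 2 days without it. Cells grew with LIF in serum (FCS, 2 libraries per state) or in 2i, a medium with inhibitors of MEK and GSK3 (3 libraries per state). All 8 groups thus carry the endogenous Esrrb knock-out. Loss of Nr5a2 and any other difference between the NrKO and EKOiE lines cannot be told apart here. Loss of Esrrb and removal of doxycycline likewise cannot be told apart. Whether cells in both media were grown side by side is not given in the labels.

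Genomic imprinting restricts expression of a gene to the allele inherited from 1 parent. At many imprinted genes, though not all, the mark is DNA methylation set in the germ line at imprinting control regions. After fertilisation this methylation is held through the wave of demethylation by the zinc-finger proteins Zfp57 and Zfp445 with their partner Trim28. The maintenance methyltransferase Dnmt1 with Uhrf1 holds it too. Many imprinted genes act on growth, the placenta and the brain, and several are silent or low in the early embryo and rise as lineages form. Reads were not assigned to parental alleles here and methylation was not measured, so every value is the summed level of both alleles.

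Library totals ran from 36514172 to 45443379 estimated counts in FCS and from 26653035 to 32526534 in 2i. Values by library are given as CPM, each library's counts as a rate of its own total after TMM scaling over all 20 libraries. Differences are log2 fold changes ± SE from edgeR's quasi-likelihood test, fitted on all genes of a medium (15636 in FCS and 14355 in 2i) or of all 20 libraries (16147), with Benjamini-Hochberg adjusted p over those genes. A change was called at an adjusted p under 0.01 and a fold over 1.5, and "called" refers to this fit unless another tool or setting is named. Libraries of 2i strayed further from their group means than those of FCS (root mean square log2 deviation 0.149 to 0.240 against 0.0995 to 0.129), and 2i −E−N replicate 3 had the lowest Esrrb (104 CPM) and Nr5a2 (20.9 CPM) of its medium. Esrrb in FCS stood at 271 and 353 CPM for +E+N, 74.2 and 65.1 for −E, 219 and 259 for −N, and 31.3 and 28.9 for −E−N. In 2i Esrrb stood at 515, 609 and 605 CPM for +E+N, 441, 434 and 380.4 for −E, 415, 531 and 527 for −N, and 171, 161 and 104 for −E−N, so in −E it was lower in 3 of 3 libraries but not called (log2 change -0.46 ± 0.16 SE, adjusted p = 0.116). The study reports that Esrrb binding to DNA was ablated in EKOiE cells of this medium once doxycycline was withdrawn. Esrrb RNA therefore does not measure how much Esrrb protein was left there. How much of these Esrrb reads came from the transgene was not tested. Nr5a2 reads remained in −N (25.6 and 27.2 CPM in FCS, 63.9 to 78.4 in 2i), where an exon is disrupted and the rest of the transcript can still be counted. Nr5a2 was also called lower in FCS −E, with 838 and 807 counts against 1524 and 1574 in +E+N. In 2i −E it had 1461, 1296 and 1220 counts against 2498, 1900 and 1775, and was not called. The labels number the libraries of a group as replicates and the study describes its replicates as independent experiments, and p-values measure the spread between them. The 7 ESC markers, Pou5f1 and Sox2 among them, summed to 1934 CPM or more in every library, and in −E−N 7 of them fell in FCS and 6 in 2i. A drop in such bulk levels can come from fewer expressing cells or from less RNA per cell, which cannot be told apart.

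Promoter windows from RefSeq (GRCm38.p6, 250 bases before to 50 after the start) were found for 31 of the 39 members, 50 windows in all. Kcnk9, Dcn, Peg13, Sgce, Klf14, Peg10, Impact and Trappc9 had none. Neither the Esrrb motif TCAAGGTCA nor its Nr5a2 form TCAAGGCCA, sought on both strands, was found in the 50 windows. These motifs occur in 0.423% and 0.591% of all 32851 windows, so few would be met in 50. The methylated motif that Zfp57 binds, TGCCGC on either strand, was found in 13 of the 50 windows (26.0%) against 11.6% of all windows. Median GC content was 57.7% in member windows and 52.7% in all, and the median ratio of observed to expected CpG was 0.637 and 0.384. Peg3 and Usp29 start from a shared divergent promoter, and the printed Peg3 window on chromosome 7 (minus strand) is shown for that reason, with the 263 bases it shares with the Usp29 window in capitals. The Mest, Zim1 and Plagl1 windows are shown because their genes moved in these data and carry the Zfp57 motif, which is in capitals. A match is a description of letters, not of binding.
Peg3 (chr7:6730370-6730669, minus strand): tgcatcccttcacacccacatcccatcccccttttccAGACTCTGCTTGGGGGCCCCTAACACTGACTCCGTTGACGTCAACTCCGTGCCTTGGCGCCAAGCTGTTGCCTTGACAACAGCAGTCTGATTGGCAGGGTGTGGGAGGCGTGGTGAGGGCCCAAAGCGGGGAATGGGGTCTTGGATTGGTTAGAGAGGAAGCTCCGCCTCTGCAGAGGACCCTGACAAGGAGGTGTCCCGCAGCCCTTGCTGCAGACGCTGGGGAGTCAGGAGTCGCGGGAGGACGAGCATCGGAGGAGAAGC
Mest (chr6:30737800-30738099, plus strand): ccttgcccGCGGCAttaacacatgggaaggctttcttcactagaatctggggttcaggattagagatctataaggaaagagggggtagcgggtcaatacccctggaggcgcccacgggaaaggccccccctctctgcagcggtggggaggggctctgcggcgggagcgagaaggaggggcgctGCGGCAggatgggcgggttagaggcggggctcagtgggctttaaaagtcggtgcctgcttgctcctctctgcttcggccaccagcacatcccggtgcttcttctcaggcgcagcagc
Zim1 (chr7:6696383-6696682, minus strand): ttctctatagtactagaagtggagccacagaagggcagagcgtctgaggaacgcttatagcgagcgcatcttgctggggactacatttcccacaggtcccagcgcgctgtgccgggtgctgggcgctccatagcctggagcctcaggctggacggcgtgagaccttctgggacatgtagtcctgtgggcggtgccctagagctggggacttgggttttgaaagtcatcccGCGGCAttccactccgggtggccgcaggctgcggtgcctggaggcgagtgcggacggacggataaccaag
Plagl1 (chr10:13090582-13090881, plus strand): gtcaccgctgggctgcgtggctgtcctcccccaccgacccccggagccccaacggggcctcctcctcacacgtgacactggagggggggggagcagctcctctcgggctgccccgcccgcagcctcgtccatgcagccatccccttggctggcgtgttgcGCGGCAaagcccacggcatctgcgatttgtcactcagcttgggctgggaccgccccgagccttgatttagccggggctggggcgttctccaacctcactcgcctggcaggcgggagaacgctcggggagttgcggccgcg

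Levels differed widely among members. Per length, as TPM averaged over the 8 groups, 28 members stood at 1 or above, 21 at 10 or above and 2 at 100 or above. Peg10 was the highest at 188 TPM, followed by Snrpn at 102, Gnas at 96.0 and Impact at 85.4. The lowest were Kcnk9, Rasgrf1, Tfpi2, Dcn, Klf14 and Asb4, each under 0.2 TPM. Peg10 also varied most among members above 1 TPM, from a group mean of 2.57 TPM in 2i +E+N to 555 in FCS −E−N. Sfmbt2 ran from 2.56 TPM in 2i −E to 80.8 in FCS −E−N, Peg3 from 3.92 in 2i +E+N to 106 in FCS −E−N, and Cobl the other way, from 1.92 in FCS −E−N to 38.7 in 2i −E. Inpp5f varied least, from 9.64 to 12.3 TPM. Of the 39 members, 36 passed the filter on low counts in FCS and 31 in 2i, where Klf14, Asb4, Calcr, Magel2 and Dcn also dropped out, and Tfpi2, Kcnk9 and Rasgrf1 passed in neither.

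Loss of both factors moved the most members, and mostly upward. In FCS −E−N, 12 of the 36 members tested rose (33.3%) and 3 fell (8.33%), where 12.4% of all genes tested rose and 6.4% fell. The 12 were Dcn, Peg10, Calcr, Nnat, Mest, Sgce, Klf14, Plagl1, Peg3, Sfmbt2, Ndn and Gnas, and the 3 were Cobl, Ddc and Mcts2. In 2i −E−N, 7 of 31 rose (22.6%) and 3 fell (9.68%), where the background was 9.06% higher and 9.56% lower. These were Peg10, Sgce, Peg3, Sfmbt2, Zim1, Mest and Gnas, with Cobl, Ddc and Trappc9 lower. Dcn and Klf14 in FCS and Zim1 in 2i met the filter on low counts in −E−N and not in +E+N, so their rise lends nothing to these shares, and the others called higher were 10 and 6. Peg10, Sgce, Peg3, Sfmbt2, Mest and Gnas rose in both media, which is 6 of the 12 in FCS and 6 of the 7 in 2i, and Cobl and Ddc fell in both. Over all members tested, called or not, the median log2 fold change was 0.34 in FCS and 0.36 in 2i, against 0.00 and 0.01 over all genes.

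The separate losses moved fewer. In FCS −E, Calcr, Magel2, Peg3 and Usp29 rose and Cobl fell, 4 and 1 of 36, against a background of 3.23% higher and 2.53% lower. This count was 2 without +E+N replicate 1, −E replicate 1 or −E replicate 2 and 3 without +E+N replicate 2, with Peg3 and Cobl called each time. With DESeq2, without the filter and with limma on log2(TPM + 0.1) it was 8, 10 and 3. In FCS −N only Mest was called of 36, where 0.0767% of genes rose and 0.0959% fell. There DESeq2 called 6 members and the fit without the filter 8. The 5 that DESeq2 added (Nnat, Cobl, Peg10, Sfmbt2 and Sgce) lay past the fold limit in the edgeR fit, with adjusted p of 0.0121 to 0.0669. In 2i −E no member of 31 was called, against 0.439% higher and 1.11% lower of all genes. There 3 members had an unadjusted p under 0.05, Peg10 at a log2 fold change of 1.15, Usp29 at 0.50 and Trappc9 at -0.44, and edgeR under every alternative, DESeq2 and limma called none. In 2i −N, Peg10, Sfmbt2, Peg3 and Mest rose and Ddc fell, 4 and 1 of 31, against 1.61% higher and 2.04% lower. This count fell to 2 without +E+N replicate 2 or 3 and to 3 without −N replicate 1 or 2. More members were called between media than in any loss, as were more of all genes. With both factors present, 15 of 36 members (41.7%) were lower in 2i than in FCS, where 17.5% of all genes were lower. The 4 that were higher (Plagl1, Cobl, Ddc and Copg2) made up 11.1%, under the 17.2% of all genes. Of the 15, Calcr, Magel2 and Zim1 met the filter in FCS +E+N and not in 2i +E+N, and the other 12 met it in both.

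**Figure D1:**
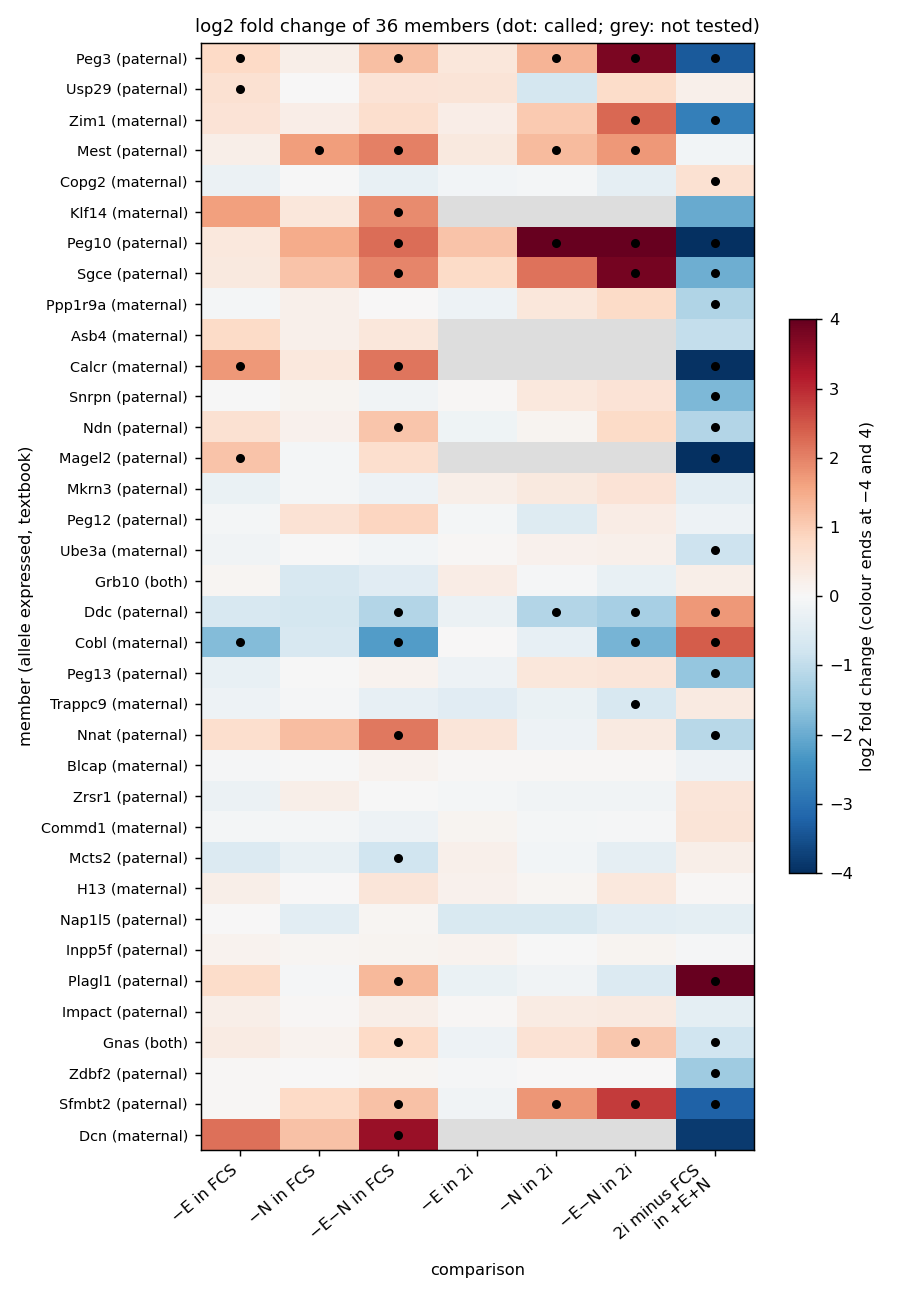
Log2 fold change (colour) of the 36 members tested, in rows by region with the allele known to be expressed, in the 6 losses and between media in +E+N (columns); dots mark called changes and grey cells were not tested. Peg10, Sgce, Peg3, Mest, Sfmbt2 and Gnas carry dots for a rise in −E−N in both media, and Cobl and Ddc carry dots for a fall in −E−N in both and for a higher level in 2i.

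The Peg10 region on chromosome 6 gave the largest fitted change of any member in a loss. Gene positions are given for the full annotated span (GENCODE, mm10). Peg10 (chr6:4747306-4760517, plus strand), a retrotransposon-derived gene that the placenta needs, and Sgce (chr6:4674350-4747207, minus strand), which encodes the membrane protein epsilon-sarcoglycan, are both expressed from the paternal allele and start 99 bases apart on opposite strands. Peg10 stood at 537 and 654 CPM for +E+N, 695 and 906 for −E, 1377 and 1961 for −N, and 2237 and 3429 for −E−N. In 2i it stood at 12.97, 11.8 and 18.7 CPM for +E+N, 16.9, 23.2 and 56.4 for −E, 342, 346 and 387 for −N, and 1054, 1191 and 2959 for −E−N. The 2i +E+N and −E libraries overlapped and were the lowest of the series, and of the 3 −E−N libraries in 2i, replicate 3 alone lay above the FCS −N range. Peg10 rose in −N in 2i (log2 change 4.62 ± 0.50 SE, adjusted p = 0.000124) and in −E−N in 2i (log2 change 6.92 ± 0.55 SE, adjusted p = 1.48e-06), a rise that the fit puts at 121-fold. In FCS it rose in −E−N (log2 change 2.23 ± 0.24 SE, adjusted p = 0.000121), whereas −N gave 1.47 with an adjusted p of 0.0224, past the fold limit but not the adjusted p limit. Peg10 was already lower in 2i than in FCS with both factors present (log2 change -5.36 ± 0.48 SE, adjusted p = 6.42e-08). Without 2i −E−N replicate 3, the highest of its group, the rise in −E−N in 2i was 6.28 and was still called, and in −E−N against −N in 2i the difference went from 2.30 to 1.66, also still called. The call in −E−N against −N was lost without −N replicate 1, 2 or 3.

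Sgce, its divergent neighbour, moved in the same groups at far fewer reads. It stood at 3.56 and 5.87 CPM for +E+N, 5.59 and 6.86 for −E, 9.07 and 12.1 for −N, and 15.5 and 21.4 for −E−N. In 2i the values were 0.739, 1.19 and 1.78 CPM for +E+N, 0.965, 1.80 and 3.46 for −E, 4.68, 4.95 and 7.27 for −N, and 10.7, 11.9 and 29.6 for −E−N. The −E−N libraries were above every +E+N library in both media. Sgce rose in −E−N in FCS (log2 change 1.95 ± 0.26 SE, adjusted p = 0.000411) and in 2i (log2 change 3.83 ± 0.52 SE, adjusted p = 9.21e-05). Without 2i −E−N replicate 3 the latter was 3.21 and still called. In −N in 2i the difference of 2.18 on the log2 scale missed the limit (adjusted p = 0.0164), and in the fit with a replicate block, which pairs these samples, it was called (2.24). Among the maternal members of this region, Ppp1r9a, a neuronal scaffold of protein phosphatase 1, ranged from 24.1 to 33.5 CPM in the FCS libraries and from 5.29 to 26.6 CPM in 2i, was not called in a loss, and was lower in 2i +E+N (log2 change -1.21 ± 0.36 SE, adjusted p = 0.00774), a call lost without any 1 of 10 libraries (at -1.01 to -1.33). Its values were 24.1 and 27.7 CPM for +E+N, 24.6 and 25.4 for −E, 27.2 and 33.5 for −N, and 26.7 and 26.8 for −E−N. In 2i they were 7.93, 12.8 and 13.03 CPM for +E+N, 5.29, 10.6 and 13.5 for −E, 9.77, 15.5 and 21.4 for −N, and 10.7, 18.9 and 26.6 for −E−N. The fit with a replicate block did call a rise in −E−N in 2i (0.70). Same-numbered 2i libraries of +E+N and −E−N deviated together at r of 0.378, -0.0141 and 0.355 for replicates 1, 2 and 3. Ppp1r9a CPM rose from replicate 1 to replicate 3 in every 2i state. Calcr, the calcitonin receptor, which starts 982592 bases from Peg10, was low but rose in FCS, with 1.54 and 1.40 CPM for +E+N, 5.16 and 4.79 for −E, 2.55 and 1.45 for −N, and 7.21 and 6.01 for −E−N. It rose in −E (log2 change 1.74 ± 0.25 SE, adjusted p = 0.00206), a call lost without any 1 of the 4 libraries compared (at 1.67 to 1.81), and in −E−N (log2 change 2.15 ± 0.25 SE, adjusted p = 0.00021), and the difference in −N was 0.42 (adjusted p = 0.504). In 2i Calcr had 1, 0 and 7 counts for +E+N, 6, 0 and 0 for −E, 1, 0 and 2 for −N, and 3, 3 and 3 for −E−N, and was not tested within that medium. Its 120 counts in FCS +E+N against 8 in 2i +E+N give a ratio of 15.9 (95% exact interval of counting error 7.82 to 37.7). The fit of all groups called it lower in 2i +E+N at -3.94, or -6.14 without 2i +E+N replicate 3, which held 7 of those 8 counts. Calcr passed the filter there through the FCS groups alone, so this call had to be toward a lower level in 2i. Asb4, a ubiquitin ligase subunit, had 1 to 45 counts and was not called, and Tfpi2, a protease inhibitor of the extracellular matrix, had at most 10 counts in any library and was not tested.

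In the Peg3 region on chromosome 7, Peg3 was called higher in 4 of the 6 losses and Usp29, which starts beside it on the other strand, in 1. Peg3 (chr7:6703892-6730431, minus strand), a large zinc-finger protein expressed from the paternal allele, stood at 303 and 289.7 CPM for +E+N, 507 and 531 for −E, 329 and 371 for −N, and 665 and 731 for −E−N. In 2i it stood at 29.7, 28.5 and 28.98 CPM for +E+N, 35.6, 36.8 and 45.6 for −E, 86.5, 75.8 and 63.8 for −N, and 267, 337 and 559 for −E−N. Groups did not overlap between +E+N and −E−N in either medium, and 2i −E−N replicate 3 was the highest 2i library. Peg3 rose in FCS in −E (log2 change 0.79 ± 0.07 SE, adjusted p = 0.000208) and in −E−N (log2 change 1.22 ± 0.08 SE, adjusted p = 7.56e-06). In 2i it rose in −N (log2 change 1.37 ± 0.22 SE, adjusted p = 0.00221) and in −E−N (log2 change 3.75 ± 0.24 SE, adjusted p = 2.85e-07), and −E gave 0.44 (adjusted p = 0.299). Leaving out 2i +E+N replicate 2 or 3 or −N replicate 1 or 2 lost the −N call at differences of 1.36, 1.37, 1.26 and 1.36.

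Usp29 (chr7:6730578-6967219, plus strand), a ubiquitin-specific peptidase, starts 147 bases from Peg3 on the other strand. It stood at 6.30 and 6.01 CPM for +E+N, 9.88 and 9.10 for −E, 6.38 and 6.17 for −N, and 8.76 and 9.45 for −E−N. In 2i the values were 7.16, 7.73 and 6.34 CPM for +E+N, 11.2, 8.53 and 10.3 for −E, 4.68, 4.06 and 4.31 for −N, and 10.1, 9.05 and 16.1 for −E−N. In −E the FCS libraries lay above +E+N and the call was made (log2 change 0.61 ± 0.12 SE, adjusted p = 0.00764), but it was lost without any library of FCS +E+N, −E or −E−N, at differences from 0.56 to 0.67. In −E−N in 2i the difference of 0.75 missed the limit (adjusted p = 0.0105), and it was called by DESeq2 (0.75), without the filter (0.74), with the replicate block (0.72) and without 2i −E−N replicate 2 (0.91). In 2i the lowest libraries were the 3 of −N (-0.71, adjusted p = 0.0504), in which Peg3 had risen. From −N to −E−N in 2i Usp29 rose (log2 change 1.46 ± 0.21 SE, adjusted p = 0.000588), as Peg3 did (log2 change 2.39 ± 0.22 SE, adjusted p = 3.14e-05). Between media in +E+N, Usp29 differed by 0.20 (adjusted p = 0.389) and Peg3 by -3.35 (adjusted p = 1.12e-09). Zim1, a zinc-finger gene known to be expressed from the maternal allele, starts 33981 bases from Peg3. It stood at 2.09 and 3.60 CPM for +E+N, 4.32 and 4.17 for −E, 2.79 and 4.20 for −N, and 4.08 and 5.12 for −E−N. In 2i it stood at 0.45, 0.335 and 0.488 CPM for +E+N, 0.5, 0.468 and 0.554 for −E, 1.05, 0.886 and 0.712 for −N, and 2.04, 1.84 and 2.44 for −E−N, or 9 to 72 counts. It rose in −E−N in 2i (log2 change 2.31 ± 0.26 SE, adjusted p = 2.44e-05) and was lower in 2i +E+N than in FCS +E+N (log2 change -2.73 ± 0.29 SE, adjusted p = 4.21e-07), whereas in FCS −E−N it gave 0.67 (adjusted p = 0.0799). In 2i Zim1 passed the filter through −E−N alone, and 2i +E+N did not pass it in the fit of all groups either.

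**Figure D2:**
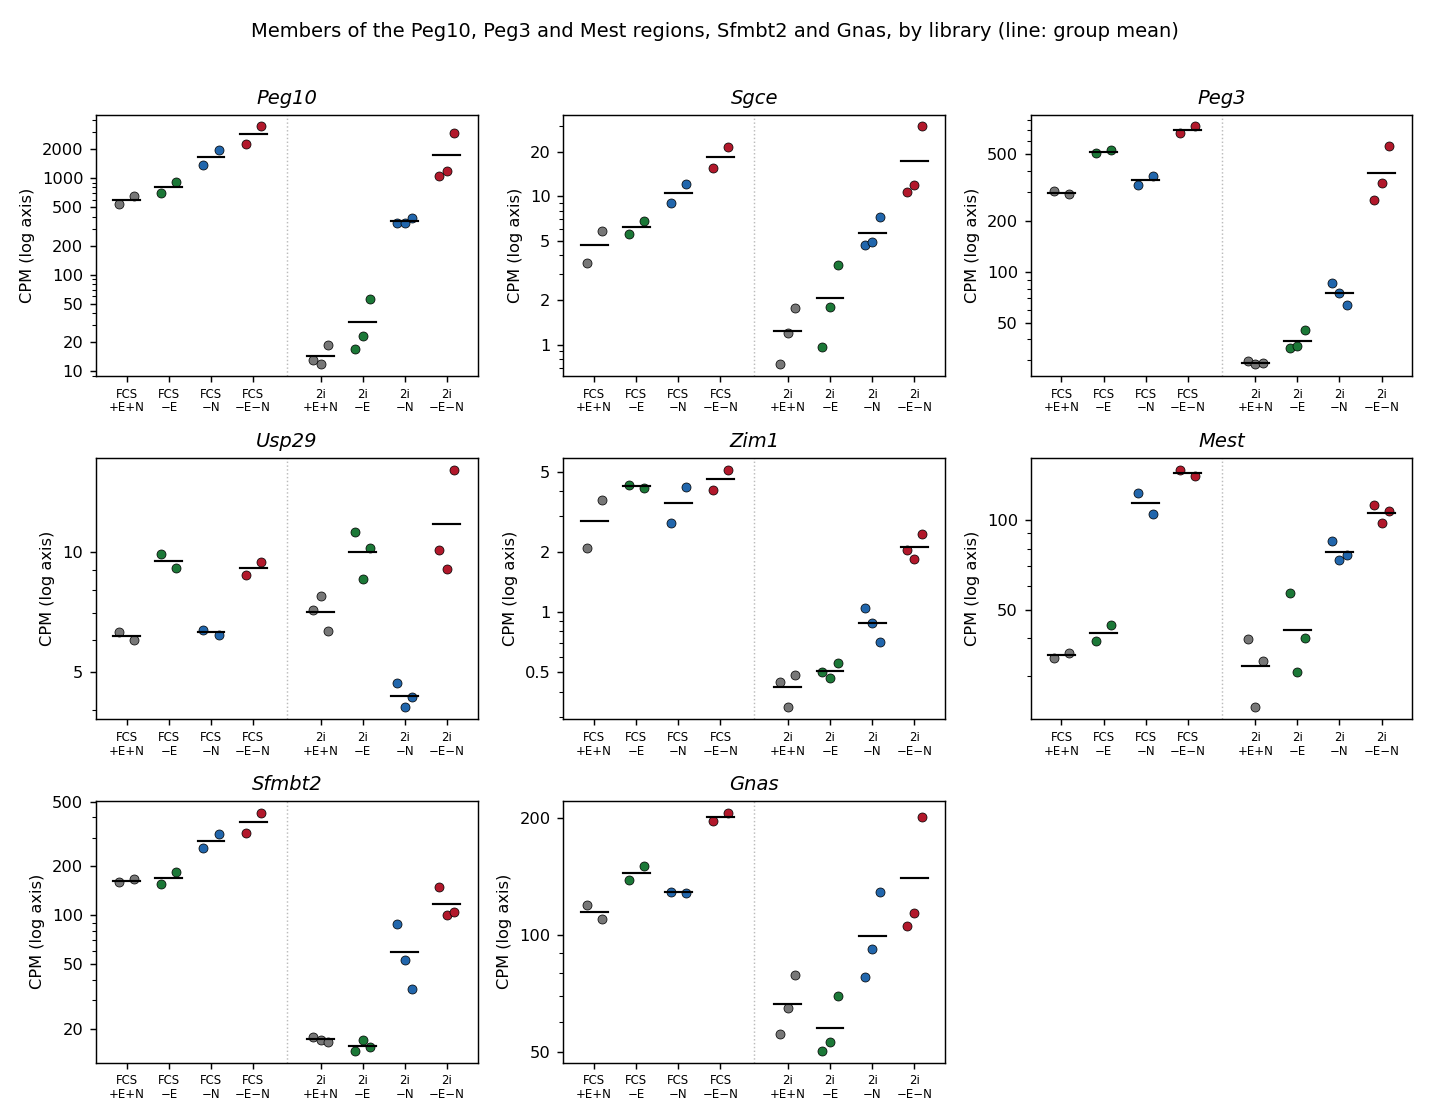
CPM (TMM-scaled counts, log axis) of 8 members in each of the 20 libraries; points are libraries, lines are group means, and the dotted line separates FCS from 2i. Peg10 ran from 11.8 to 3429 CPM over the series, its neighbour Sgce and Peg3 followed the same order of groups in 2i, and Usp29 stayed between 4.06 and 16.1 CPM.

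Mest was the member called in −N in FCS, where few genes were called at all. Mest (chr6:30723547-30748465, plus strand) belongs to the alpha/beta hydrolase family, is expressed from the paternal allele and marks mesoderm in the embryo. It stood at 34.4 and 35.9 CPM for +E+N, 39.3 and 44.3 for −E, 123 and 104 for −N, and 147 and 140.4 for −E−N. In 2i it stood at 39.9, 23.5 and 33.5 CPM for +E+N, 56.7, 30.8 and 40.2 for −E, 84.9, 73.1 and 76.4 for −N, and 112, 97.9 and 107 for −E−N. In both media every −N and −E−N library was above every +E+N and −E library. The rise was called in −N in FCS (log2 change 1.67 ± 0.09 SE, adjusted p = 0.000139) and in 2i (log2 change 1.27 ± 0.21 SE, adjusted p = 0.00221), and in −E−N in FCS (log2 change 2.01 ± 0.09 SE, adjusted p = 1.5e-06) and in 2i (log2 change 1.72 ± 0.21 SE, adjusted p = 3.95e-05). In −E it gave 0.23 in FCS (adjusted p = 0.101) and 0.40 in 2i (adjusted p = 0.308). Between media with both factors present, Mest was not called (-0.12, adjusted p = 0.629). Leaving out 2i +E+N replicate 2 or 3 lost its −N call in 2i, at 1.08 and 1.30. Copg2, a coat protein subunit of the Golgi that overlaps the end of Mest by 912 bases of exon on the other strand, was not called in a loss. No strand setting is stated for the counting, so the values of Mest and Copg2 may hold reads of each other. Its values were 63.7 and 64.3 CPM for +E+N, 52.9 and 56.7 for −E, 59.8 and 67.4 for −N, and 50.6 and 55.05 for −E−N. In 2i they were 98.3, 96.3 and 96.9 CPM for +E+N, 85.95, 90.9 and 93.8 for −E, 90.6, 89.2 and 94.8 for −N, and 70.8, 71.3 and 84.7 for −E−N. It was called higher in 2i +E+N (log2 change 0.60 ± 0.08 SE, adjusted p = 5.61e-06) at a fold close to the limit, and 5 of 6 alternatives did not call it. Klf14, a single-exon Krüppel-like factor known to be expressed from the maternal allele, had 0.288 and 0.115 CPM for +E+N, 0.54 and 0.715 for −E, 0.217 and 0.325 for −N, and 0.815 and 0.668 for −E−N. With 58 counts in FCS −E−N against 16 in +E+N, it was called (log2 change 1.88 ± 0.44 SE, adjusted p = 0.00763), but DESeq2 did not call it (1.87), and the call was lost without any 1 of 5 libraries (at 1.34 to 2.01). Without FCS +E+N replicate 1 the difference was 2.64 and still called. Klf14 passed the filter in −E and −E−N but not in +E+N, so a call in −E−N had to be a rise. In 2i Klf14 had 0, 0 and 0.139 CPM for +E+N, 0.0715, 0.144 and 0 for −E, 0, 0.111 and 0 for −N, and 0.0658, 0.141 and 0.101 for −E−N, at most 4 counts in a library.

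Sfmbt2 and Gnas rose in −E−N in both media. Sfmbt2 (chr2:10370510-10595253, plus strand), a Polycomb-group protein expressed from the paternal allele that trophoblast development needs, stood at 159 and 166 CPM for +E+N, 154 and 184 for −E, 258 and 316 for −N, and 322 and 425 for −E−N. In 2i it stood at 17.9, 17.1 and 16.7 CPM for +E+N, 14.7, 17.1 and 15.5 for −E, 88.6, 53.3 and 34.95 for −N, and 148, 100.4 and 105 for −E−N. The −N and −E−N libraries lay above all +E+N and −E libraries of their medium. Sfmbt2 rose in −N in 2i (log2 change 1.77 ± 0.26 SE, adjusted p = 0.00123), in −E−N in 2i (log2 change 2.79 ± 0.27 SE, adjusted p = 6.94e-06) and in −E−N in FCS (log2 change 1.18 ± 0.14 SE, adjusted p = 0.000258), and −N in FCS gave 0.80 (adjusted p = 0.0324). Its difference in −E was 0.04 in FCS and -0.13 in 2i. Between media in +E+N it was lower in 2i (log2 change -3.24 ± 0.26 SE, adjusted p = 2.08e-08).

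Gnas (chr2:174284320-174346744, plus strand) encodes the stimulatory G-protein alpha subunit, and its row sums all transcripts of a locus whose promoters are imprinted in different directions. It stood at 119.8 and 110.1 CPM for +E+N, 139 and 151 for −E, 129 and 128 for −N, and 197 and 206 for −E−N. In 2i it stood at 55.7, 65.05 and 79.1 CPM for +E+N, 50.5, 53.1 and 69.6 for −E, 78.1, 92.01 and 129 for −N, and 106, 114 and 201 for −E−N. Gnas rose in −E−N in FCS (log2 change 0.79 ± 0.06 SE, adjusted p = 3.05e-05) and in 2i (log2 change 1.09 ± 0.25 SE, adjusted p = 0.00402). In 2i the −E−N replicate 3 library was the highest, and without it the difference was 0.73 and no longer called. The call was also lost without 2i +E+N replicate 1 (0.97) or replicate 2 (1.07). Between media in +E+N Gnas was lower in 2i (log2 change -0.79 ± 0.23 SE, adjusted p = 0.00792), a call lost without any 1 of 8 libraries (at -0.67 to -0.86).

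In the Grb10 region on chromosome 11, Cobl and Ddc fell in −E−N in both media. Cobl (chr11:12236608-12464960, minus strand), the actin nucleator cordon-bleu, is known to be expressed from the maternal allele in the yolk sac. It stood at 30.2 and 27.2 CPM for +E+N, 8.59 and 8.99 for −E, 18.6 and 18.4 for −N, and 6.34 and 6.01 for −E−N. In 2i it stood at 131, 167 and 163 CPM for +E+N, 129, 161 and 175 for −E, 89.9, 132 and 143 for −N, and 44.9, 46.5 and 33.7 for −E−N. In FCS the −E and −E−N libraries lay below the −N and +E+N libraries, and in 2i the −E−N libraries lay below all others. Cobl fell in FCS in −E (log2 change -1.73 ± 0.09 SE, adjusted p = 1.51e-05) and in −E−N (log2 change -2.24 ± 0.10 SE, adjusted p = 1.3e-06), and in 2i in −E−N (log2 change -1.87 ± 0.18 SE, adjusted p = 7.94e-06). In −E in 2i its difference was 0.01 (adjusted p = 0.98). It was higher in 2i than in FCS (log2 change 2.42 ± 0.19 SE, adjusted p = 1.3e-08).

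Ddc (chr11:11814101-11898144, minus strand), the decarboxylase that makes dopamine and serotonin, is known to be expressed from the paternal allele in the embryonic heart. It stood at 11.3 and 10.3 CPM for +E+N, 7.49 and 6.41 for −E, 7.27 and 6.23 for −N, and 5.65 and 4.06 for −E−N. In 2i it stood at 28.8, 38.6 and 39.6 CPM for +E+N, 27.9, 31.7 and 30.9 for −E, 11.3, 16.1 and 20.6 for −N, and 11.5, 13.1 and 17.3 for −E−N. Ddc fell in −N in 2i (log2 change -1.16 ± 0.21 SE, adjusted p = 0.00379), in −E−N in 2i (log2 change -1.33 ± 0.21 SE, adjusted p = 0.000258) and in −E−N in FCS (log2 change -1.17 ± 0.18 SE, adjusted p = 0.000752). Without 2i +E+N replicate 2 or 3 or −N replicate 1 or 2 the −N call in 2i was lost, at -1.10, -1.07, -0.96 and -1.16. In FCS Ddc gave -0.65 in −E and -0.70 in −N, both uncalled (adjusted p = 0.0281 and 0.081). Between media in +E+N it was higher in 2i (log2 change 1.72 ± 0.23 SE, adjusted p = 5.08e-06). Grb10 itself, an adaptor that restrains insulin and growth factor signalling, ranged from 32.4 to 82.6 CPM in FCS and from 47.7 to 119 CPM in 2i and was not called by edgeR with the filter and all libraries in. Its largest difference among the losses was -0.64, in −N in FCS (adjusted p = 0.248), and the fit without the filter called it there (-0.64).

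The Snrpn region on chromosome 7, the mouse counterpart of the Prader-Willi region, differed mainly by medium. Snrpn (chr7:59982495-60140219, minus strand), a splicing protein of brain, stood at 215 and 208 CPM for +E+N, 215 and 211 for −E, 228 and 235 for −N, and 199 and 189 for −E−N. In 2i it stood at 62.7, 58.9 and 60.8 CPM for +E+N, 61.9, 61.8 and 63.6 for −E, 79.5, 81.6 and 82.9 for −N, and 92.5, 83.5 and 86.2 for −E−N. No FCS library fell to the level of any 2i library (log2 change -1.80 ± 0.05 SE, adjusted p = 2.82e-13). Its difference in −E−N in 2i was 0.54 (adjusted p = 1.29e-05) and in −N in 2i 0.41 (adjusted p = 0.000688), past the adjusted p limit but under the fold limit. Snrpn counts are uncertain where they share exons with Snurf, which has a row of its own. Ndn, the growth suppressor necdin, stood at 10.9 and 14.4 CPM for +E+N, 18.5 and 20.7 for −E, 12.1 and 16.9 for −N, and 25.2 and 29.8 for −E−N. In 2i it stood at 3.50, 5.35 and 7.91 CPM for +E+N, 4.82, 4.32 and 5.78 for −E, 5.12, 5.65 and 7.19 for −N, and 7.73, 8.76 and 11.4 for −E−N. It rose in −E−N in FCS (log2 change 1.10 ± 0.18 SE, adjusted p = 0.0013) and was lower in 2i +E+N (log2 change -1.18 ± 0.26 SE, adjusted p = 0.00083). Without FCS −E−N replicate 2 the first call was lost, at 0.96, and without FCS +E+N replicate 2 the medium call was lost, at -0.98.

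Magel2, a MAGE-family partner of ubiquitin ligases that starts 30441 bases from Ndn, stood at 3.22 and 4.36 CPM for +E+N, 7.93 and 9.08 for −E, 3.37 and 3.98 for −N, and 6.65 and 5.49 for −E−N. In 2i it stood at 0.0321, 0.0743 and 0.105 CPM for +E+N, 0.143, 0.036 and 0.139 for −E, 0.182, 0.111 and 0.225 for −N, and 0.296, 0.459 and 0.372 for −E−N. It rose in −E in FCS (log2 change 1.14 ± 0.19 SE, adjusted p = 0.00354), a call lost without FCS +E+N replicate 1 or −E replicate 1 or 2 (at 0.95, 1.25 and 1.05). Its 313 counts in FCS +E+N against 6 in 2i +E+N give a ratio of 55.3 (95% exact interval of counting error 25.1 to 152), and the fit called it lower in 2i (adjusted p = 1.2e-09). It passed the filter there through the FCS groups alone, so a call could be made only toward a lower level in 2i. Ube3a, the ubiquitin ligase of Angelman syndrome, is imprinted in neurons. It stood at 164 and 152 CPM for +E+N, 146 and 145 for −E, 153 and 162 for −N, and 145 and 151 for −E−N. In 2i it stood at 85.7, 92.8 and 91.8 CPM for +E+N, 83.02, 93.2 and 100.4 for −E, 103, 97.1 and 105 for −N, and 98.3, 95.5 and 115 for −E−N. It was lower in 2i +E+N (log2 change -0.81 ± 0.08 SE, adjusted p = 2.75e-07) and not called in any loss. Mkrn3 and Peg12, the other paternal members of the region, were not called by edgeR and ranged from 5.91 to 10.5 CPM and from 0.482 to 2.74 CPM. Peg12 in −E−N in FCS was called without the filter (0.86) and with the replicate block (0.88), and the difference between media in the −E−N response of Mkrn3 was called with the block (0.72).

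Plagl1 and Nnat changed in −E−N in FCS, with a response in 2i that differed. Plagl1 (Zac1, chr10:13060504-13131694, plus strand), a zinc-finger growth suppressor and regulator of other imprinted genes, stood at 9.57 and 10.3 CPM for +E+N, 13.8 and 19.9 for −E, 8.73 and 10.7 for −N, and 22.3 and 27.5 for −E−N. In 2i it stood at 188, 158 and 183 CPM for +E+N, 151, 145 and 144 for −E, 145, 150.5 and 187 for −N, and 88.4, 126 and 141 for −E−N. All 12 libraries in 2i were above all 8 in FCS (log2 change 4.15 ± 0.21 SE, adjusted p = 9.07e-11). It rose in −E−N in FCS (log2 change 1.31 ± 0.19 SE, adjusted p = 0.000561) and gave -0.56 in −E−N in 2i (adjusted p = 0.00974, under the fold limit). Nnat (chr2:157560078-157562522, plus strand), neuronatin, a small membrane protein of the endoplasmic reticulum encoded within an intron of Blcap, stood at 5.54 and 5.05 CPM for +E+N, 7.93 and 9.22 for −E, 14.7 and 10.7 for −N, and 23.9 and 22.1 for −E−N. In 2i it stood at 2.22, 1.86 and 3.20 CPM for +E+N, 3.90, 3.13 and 3.22 for −E, 1.63, 1.74 and 3.00 for −N, and 2.83, 2.83 and 3.62 for −E−N. Every −E−N library in FCS was above every other FCS library. In 2i the −E−N libraries overlapped those of each other state, and the −E libraries lay above the −N libraries. Nnat rose in −E−N in FCS (log2 change 2.10 ± 0.16 SE, adjusted p = 2.15e-05), and −N in FCS gave 1.24 (adjusted p = 0.0121). In 2i −E−N its difference was 0.36 (adjusted p = 0.316), and between media in +E+N it was lower in 2i (log2 change -1.12 ± 0.24 SE, adjusted p = 0.000764). Blcap, the host gene, ranged from 26.2 to 37.05 CPM over the 20 libraries and was not called.

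**Figure D3:**
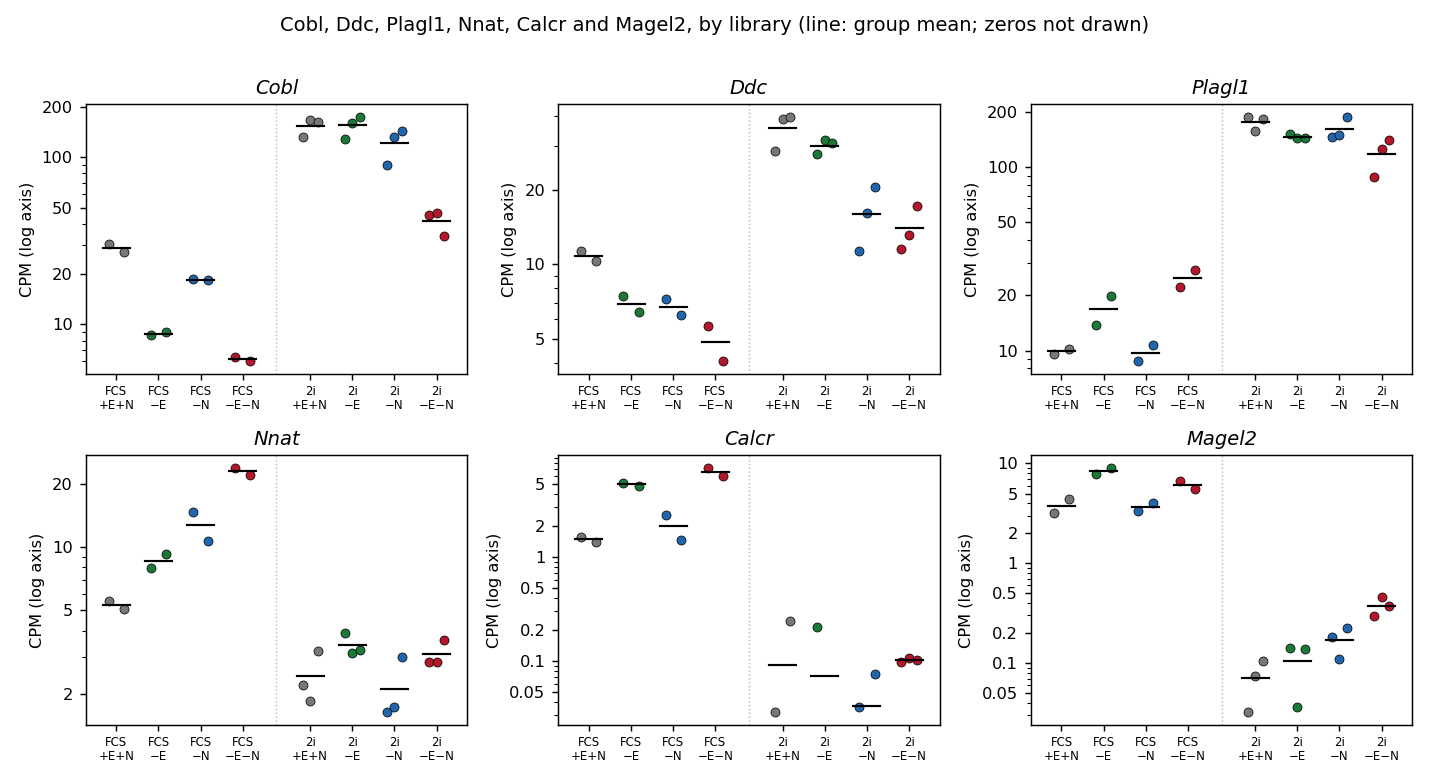
CPM (TMM-scaled counts, log axis) of Cobl, Ddc, Plagl1, Nnat, Calcr and Magel2 in each of the 20 libraries; points are libraries, lines are group means, and libraries at 0 are not drawn. Cobl in FCS fell from 27.2 and 30.2 to 6.01 and 6.34 CPM in −E−N, and Plagl1 was at or above 88.4 CPM in 2i and at or below 27.5 CPM in FCS.

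Of the retrogenes that sit inside a host gene, Mcts2 was called. Mcts2, a translation factor copy within H13, fell in −E−N in FCS (log2 change -0.78 ± 0.11 SE, adjusted p = 0.000666). Its values were 27.6 and 28.3 CPM for +E+N, 19.2 and 19.8 for −E, 21.2 and 25.2 for −N, and 14.9 and 17.98 for −E−N. In 2i they were 33.3, 32.5 and 33.4 CPM for +E+N, 44.03, 35.2 and 35.2 for −E, 28.3, 32.7 and 31.9 for −N, and 29.1, 24.5 and 22.8 for −E−N. Reads of Mcts2 can be shared with its parent gene Mcts1, so this value is uncertain. H13, a signal peptide peptidase, ranged from 27.7 to 41.99 CPM and gave 0.47 in −E−N in FCS and 0.43 in 2i, past the adjusted p limit (0.000917 and 0.00268) but under the fold limit. Zrsr1, a splicing factor copy within Commd1 whose reads can be shared with Zrsr2, ranged from 24.3 to 40.8 CPM, and Commd1 ranged from 41.7 to 76.6 CPM. No strand setting is stated for the counting, so the values of Zrsr1 and Commd1 may hold reads of each other. Limma called Commd1 higher in 2i +E+N (1.29 on log2(TPM + 1)), but edgeR called neither of them, nor Nap1l5 (0.565 to 1.70 CPM) and Inpp5f (24.4 to 31.6 CPM). The Inpp5f row covers a full gene of 85098 bases and sums its transcripts, so an imprinted transcript among them was not measured apart.

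Of the remaining members, Dcn (decorin, a proteoglycan of connective tissue known to be expressed from the maternal allele in placenta) was near the detection limit. In FCS it had 2 and 2 counts for +E+N, 11 and 9 for −E, 6 and 4 for −N, and 21 and 24 for −E−N. In 2i it had 1 count in each of −E−N replicates 1 and 3 and 0 in the other libraries. The 45 counts in −E−N against 4 in +E+N in FCS give a ratio of 11.7 (95% exact interval of counting error 4.28 to 44.9), called at an adjusted p of 0.00048. Dcn passed the filter through FCS −E−N alone, so a call in −E−N had to be a rise. Of 7 fibroblast or feeder marker genes, Lum and Dpt, which share Dcn's tissue, were both at 0 in FCS +E+N, and the others were not. In FCS −E−N 5 were tested, of which Col3a1, Col1a2 and Col1a1 were called higher and Postn and Thy1 were not called. Thy1 went the other way, with 145 and 135 counts against 173 and 271 in +E+N. In 2i −E−N, of 3 tested, Col1a2 rose and Thy1 fell. The part of such cells in the Dcn value was not tested. Zdbf2, a paternally expressed gene of brain, was lower in 2i +E+N (log2 change -1.43 ± 0.14 SE, adjusted p = 1.28e-07). It stood at 203 and 187 CPM for +E+N, 209.7 and 201 for −E, 209 and 193 for −N, and 211 and 202 for −E−N. In 2i it stood at 68.4, 72.2 and 76.95 CPM for +E+N, 55.8, 76.01 and 79.1 for −E, 61.4, 75.2 and 85.6 for −N, and 66.8, 68.6 and 82.8 for −E−N. No loss moved Zdbf2 by more than 0.07 on the log2 scale. Impact, an inhibitor of the kinase Gcn2, ranged from 158 to 286 CPM and was not called. Rasgrf1, a Ras exchange factor of brain, and Kcnk9, a leak potassium channel, had at most 14 and 9 counts and were not tested.

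At the Peg13 region on chromosome 15, Trappc9 fell by a small amount in −E−N in 2i (log2 change -0.65 ± 0.16 SE, adjusted p = 0.00657). Trappc9 is a subunit of a vesicle transport complex whose introns hold the noncoding RNA Peg13. It stood at 13.99 and 15.2 CPM for +E+N, 12.6 and 13.3 for −E, 13.7 and 15.02 for −N, and 11.6 and 12.2 for −E−N. In 2i it stood at 17.2, 21.3 and 18.3 CPM for +E+N, 10.5, 17.9 and 13.4 for −E, 14.7, 17.7 and 15.2 for −N, and 12.1, 12.2 and 11.6 for −E−N. The call was lost without any of 2i −E−N replicates 1 to 3, +E+N replicates 2 and 3 or −E replicate 3, at differences from -0.55 to -0.67. Peg13 was lower in 2i +E+N (log2 change -1.54 ± 0.21 SE, adjusted p = 1.03e-05) and not called in a loss. Its values were 4.94 and 6.29 CPM for +E+N, 4.79 and 4.55 for −E, 5.15 and 6.08 for −N, and 6.10 and 6.55 for −E−N. In 2i they were 1.54, 1.90 and 2.37 CPM for +E+N, 2.04, 1.47 and 1.56 for −E, 2.25, 2.77 and 2.96 for −N, and 2.60, 2.23 and 3.28 for −E−N.

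The response to the joint loss was then compared between media, as the −E−N log2 fold change in 2i minus that in FCS. Of 36 members, 5 had a higher response in 2i and 2 a lower one at an adjusted p under 0.01, where 5.93% of all genes were higher and 7.3% lower. Peg10 differed most (log2 change 4.65 ± 0.64 SE, adjusted p = 7.07e-05), at 4.02 and still called without 2i −E−N replicate 3, followed by Peg3 (log2 change 2.50 ± 0.30 SE, adjusted p = 1.92e-05), Zim1 (log2 change 1.61 ± 0.39 SE, adjusted p = 0.006), Sfmbt2 (log2 change 1.58 ± 0.36 SE, adjusted p = 0.00445) and Snrpn (log2 change 0.65 ± 0.08 SE, adjusted p = 2.01e-05). Plagl1 (log2 change -1.90 ± 0.26 SE, adjusted p = 6.13e-05) and Nnat (log2 change -1.77 ± 0.34 SE, adjusted p = 0.00127) had a lower response in 2i. All 5 members with a higher response, Peg10, Peg3, Zim1, Sfmbt2 and Snrpn, were lower in 2i than in FCS with both factors present, so the −E−N change in 2i started from a lower level. Even after it, the −E−N mean in 2i was under that in FCS for each of them, for Peg10 1735 against 2833 CPM and for Peg3 388 against 698 CPM. The +E+N levels enter the difference in response with the opposite sign, so the level in +E+N and this response are not independent. Nnat was also lower in 2i +E+N but had a lower response in 2i. Other members lower in 2i +E+N, Sgce and Gnas among them, had no called difference in response. The Zim1 call was lost without any of 7 libraries (at 1.17 to 1.81), and the Sfmbt2 call without any of 6 (at 1.38 to 1.61). Sgce differed by 1.85 (adjusted p = 0.0523), and Mest by -0.33 (adjusted p = 0.43).

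**Figure D4:**
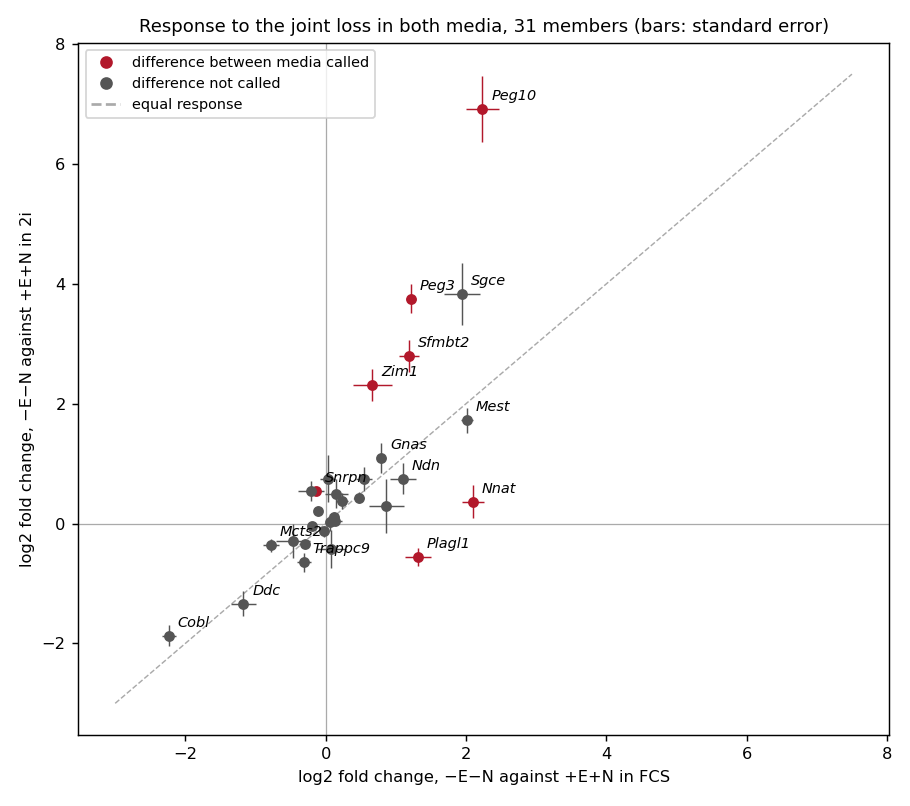
Log2 fold change of −E−N against +E+N in FCS (x axis) and in 2i (y axis) for the 31 members tested in both, with standard errors; red points are members whose difference between media was called and the dashed line marks an equal response. Peg10, Peg3, Sfmbt2 and Zim1 lie above the line, and Nnat and Plagl1 below it.

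Within the Nr5a2-disrupted line, withdrawal of doxycycline was also compared, as −E−N against −N. In FCS, Dcn, Calcr, Plagl1, Peg3, Ndn, Nnat and Gnas rose and Cobl fell, 7 and 1 of 36, with 6.57% of all genes higher and 3.49% lower. Dcn met the filter in −E−N and not in −N, as did Zim1 in 2i. This count was 4 without −E−N replicate 1 (Calcr, Dcn, Ndn and Nnat lost) or −E−N replicate 2 (Dcn, Ndn, Nnat and Plagl1 lost). In 2i, Peg3, Peg10, Usp29 and Zim1 rose and Cobl fell, 4 and 1 of 31, with 3.39% higher and 3.36% lower. In the fit with a replicate block, which pairs these 2i samples, 8 were called, Sgce, Sfmbt2 and Ndn in addition, and without −N replicate 2 or 3 the count was 3, Peg10 and Zim1 being lost. Without −N replicate 1 Peg10 was lost and Sfmbt2 gained. Peg3 gave a difference in FCS (log2 change 1.00 ± 0.07 SE, adjusted p = 4.19e-05) and 2.39 ± 0.22 in 2i. Cobl gave a difference in FCS (log2 change -1.58 ± 0.10 SE, adjusted p = 1.56e-05) and in 2i (log2 change -1.53 ± 0.18 SE, adjusted p = 0.000161). Mest, which rose in −N, gave 0.34 in FCS and 0.45 in 2i, neither called (adjusted p = 0.0149 and 0.136).

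Whether the joint loss exceeded the sum of the separate losses on the log2 scale was tested as an interaction. Nr5a2 RNA was itself lower in −E, so at the RNA level −E was not a change of Esrrb alone. No member was called in FCS (of 36, background 0.032% of genes) or in 2i (of 31, background 0.307%), although 3 and 6 members had an unadjusted p under 0.05. The nearest were Peg3 in 2i (log2 change 1.95 ± 0.31 SE, adjusted p = 0.0108) and Cobl in 2i (log2 change -1.54 ± 0.25 SE, adjusted p = 0.0124). DESeq2 called both in 2i and no member in FCS, limma called 0 in either medium, and Peg3 and Cobl in 2i were also called by the fits without the filter and with the block, the last with Gnas added, and in FCS the fit without the filter called Peg10. Without 2i −E−N replicate 1 or 3 Peg3 was called (2.16 and 1.58), and without −N replicate 1 Cobl was (-1.72). For Peg3 in 2i the separate differences were 0.44 and 1.37, and the joint difference was 3.75. For Cobl in 2i they were 0.01 and -0.34, and -1.87. Peg10 in 2i gave an interaction of 1.15 (adjusted p = 0.452).

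By the allele known to be expressed, in FCS −E−N 8 of 21 paternal members tested rose and 2 fell, and 3 of 13 maternal members (Calcr, Dcn and Klf14) rose and 1 fell, with 12.4% of all genes higher and 6.4% lower. Median log2 fold changes were 0.55 and 0.13. In 2i −E−N, 5 of 20 paternal members rose and 1 fell, and 1 of 9 maternal members (Zim1) rose and 2 fell, with medians of 0.43 and 0.05 and a background of 9.06% higher and 9.56% lower. Between media in +E+N, 10 of 21 paternal and 4 of 13 maternal members were lower in 2i, with medians of -0.41 and -0.81, where 17.5% of all genes were lower. Dcn, Klf14 and Zim1 met the filter only on the side where they were higher, as did Calcr and Magel2 between media. Whether the classes differed was not tested, and members of 1 region are not independent of each other. In the Peg3 region both the paternal Peg3 and the maternal Zim1 rose in −E−N in 2i.

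Of 12 genes that maintain or protect imprints, 2 fell in FCS −E−N (16.7%, against 6.4% of all genes) and 1 in FCS −E (8.33% against 2.53%). In 2i −E−N, 1 rose and 2 fell (8.33% and 16.7%, against 9.06% and 9.56%), and in 2i −N 1 rose (8.33% against 1.61%). Between media in +E+N, Uhrf1 was higher in 2i and Dppa3 and Trim28 were lower (8.33% and 16.7%, against 17.2% and 17.5%). Zfp57, the zinc-finger protein that recognises methylated imprinting control regions, fell in FCS in −E (log2 change -1.56 ± 0.05 SE, adjusted p = 9.83e-07) and in −E−N (log2 change -2.07 ± 0.05 SE, adjusted p = 9.63e-08), and in 2i in −E−N (log2 change -0.73 ± 0.12 SE, adjusted p = 0.000306). It stood at 229.5 and 237 CPM for +E+N, 81.5 and 78.8 for −E, 184 and 177 for −N, and 56.4 and 55.8 for −E−N. In 2i it stood at 295, 278 and 282 CPM for +E+N, 219, 231 and 225 for −E, 211, 293 and 270.3 for −N, and 152, 198 and 161 for −E−N. Trim28, the corepressor that Zfp57 recruits, fell in FCS −E−N (log2 change -0.64 ± 0.13 SE, adjusted p = 0.0031), and Uhrf1, which brings Dnmt1 to replicated DNA, fell in 2i −E−N (log2 change -0.64 ± 0.12 SE, adjusted p = 0.000818). Dppa3 (Stella), which protects the maternal genome from demethylation in the zygote, rose in 2i in −N (log2 change 2.08 ± 0.35 SE, adjusted p = 0.00261) and −E−N (log2 change 3.43 ± 0.36 SE, adjusted p = 1.29e-05). It stood at 15.1, 11.3 and 7.77 CPM for +E+N, 18.4, 23.1 and 25.4 for −E, 80.2, 40.4 and 24.99 for −N, and 134, 110.4 and 122 for −E−N in 2i. In FCS it fell from −N to −E−N (log2 change -0.63 ± 0.11 SE, adjusted p = 0.00285). Dnmt1 gave 0.03 in FCS −E−N and -0.19 in 2i −E−N (adjusted p = 0.716 and 0.0835), and Zfp445 gave -0.06 and 0.08 (adjusted p = 0.495 and 0.404). The other 6 were called in no loss. Zfp57's part in the members' values was not tested.

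Trophectoderm markers were, as a sum, higher than in +E+N in −N and −E−N of both media and in −E of FCS. Peg10, Sgce, Sfmbt2 and Mest were highest in −N and −E−N of each medium. Of the other members called higher in FCS −E−N, Peg3, Ndn, Calcr, Plagl1, Gnas, Dcn and Klf14 were higher in −E than in −N. Nnat was lower in −E than in −N there. Keratins held most of the trophectoderm sum in FCS −E−N. In its replicate 1, Krt8, Krt18 and Krt7 had 27948, 17204 and 6459 counts, and each other marker of the list at most 518. Of 8 such markers, 7 rose in FCS −E−N (Krt8, Krt18, Elf5, Krt7, Gata3, Cdx2 and Eomes) and Tfap2a fell. In 2i −E−N, 5 of 7 tested rose (Cdx2, Krt18, Krt7, Krt8 and Gata3) and Tfap2a and Eomes fell, and in 2i −N the 3 keratins rose. The summed level of the 8 ran from 346 to 399 CPM in FCS +E+N, 477 to 654 in −E, 712 to 980 in −N and 1388 to 2170 in −E−N. In 2i it ran from 34.1 to 38.2 CPM in +E+N, 30.1 to 34.9 in −E, 102 to 113 in −N and 241 to 410 in −E−N. No marker of this list was at 0 in all libraries of a group. Primitive endoderm markers summed to 23.4 to 58.1 CPM in FCS and 4.90 to 14.2 in 2i, and mesoderm and streak markers to at most 14.5 CPM in any library. Neural markers summed to 276 to 302 CPM in FCS −E−N against 176 to 185 in +E+N, and to 47.3 to 69.0 in 2i −E−N against 75.4 to 88.3 in +E+N. Fibroblast or feeder markers summed to at most 13.1 CPM. Of the called changes in −E−N in FCS, 1 of 7 primitive endoderm markers (Dab2) rose, as did 1 of 3 mesoderm and streak markers tested (T), and of 6 neural markers Nes and Sox1 rose and Pax6 fell. In −E−N in 2i, Foxa2 and Pdgfra rose and Gata4 fell of 5 primitive endoderm markers, T rose and Kdr and Gsc fell of 4 mesoderm markers, and Pax6 and Map2 rose and Tubb3 fell of 5 neural markers. Of the markers called, Elf5, T, Col1a2 and Col3a1 in FCS −E−N, and Cdx2, Foxa2, Pax6, Col1a2, Gata4, Kdr and Thy1 in 2i −E−N, met the filter on low counts only on the side where they were higher. The part of such cells in the members' values was not tested.

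**Figure D5:**
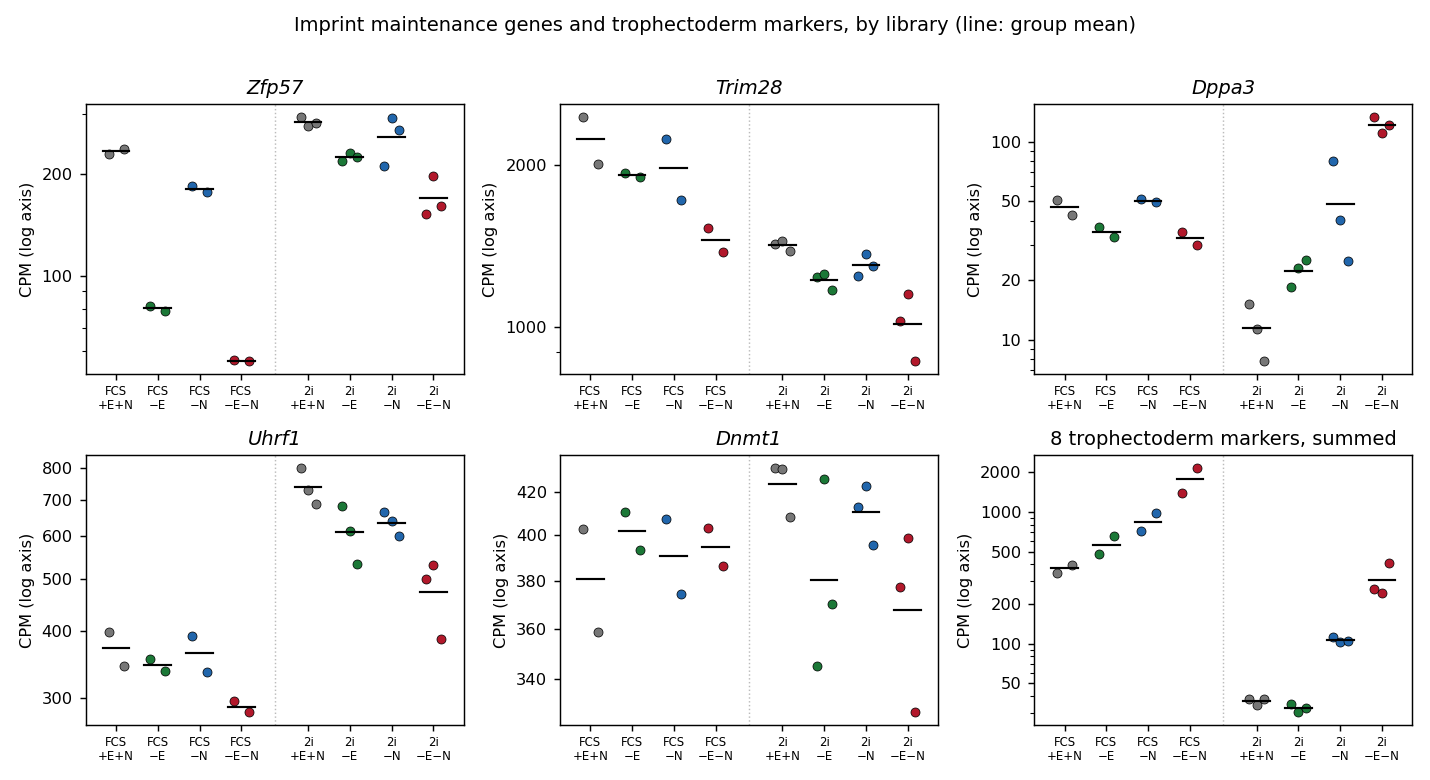
CPM (TMM-scaled counts, log axis) of 5 imprint maintenance genes and of 8 trophectoderm marker genes summed, in each of the 20 libraries; points are libraries and lines are group means. Zfp57 was lowest in FCS −E−N (55.8 and 56.4 CPM), Dnmt1 stayed between 328 and 432 CPM, and the summed markers were highest in FCS −E−N.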

How the data were processed

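Whole-transcriptome RNA-seq of 20 libraries was analysed, 2 per state in FCS/LIF and 3 per state in 2i/LIF. Paired-end reads of stranded libraries were mapped by the authors with STAR (build mm10) and quantified per gene with RSEM, and the submitters' processing notes also name Bowtie2; versions, the annotation release and a strand setting are not given in the sources used here. The deposited table gives an expected count and a TPM value per gene and library. Expected counts, which the authors deposited unnormalized, were rounded to whole numbers. TPM values, corrected for length and scaled to a common total by the authors, were used for levels between genes and in limma. The table has 54238 rows, of which 92 are spike-ins, not genes, with 0% of counts, and were left out. ChIP-seq samples of the series were not analysed here.

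Each medium was fitted by edgeR 4.0.16 (R 4.3.3) with TMM scaling and the quasi-likelihood test, keeping a gene where 1 or more groups had 20 or more counts in each replicate. Comparisons between media came from a fit of all 8 groups. P-values were adjusted by Benjamini-Hochberg over all genes tested. A change was called at adjusted p under 0.01 and over 1.5-fold, and interactions and the difference between media at adjusted p under 0.01 alone. Exact conditional intervals at 95% were used for ratios of low counts and cover counting error only. Alternatives were DESeq2 1.42.0, its size factors, no filter, the replicate number as a block, limma 3.58.1 after adding 1 or 0.1 to TPM before the log2, and each library left out. Code was tested on simulated data. Samples with the same number in 2i deviated together (r over 0.1 in every pair) for −E, −N and −E−N against −N. For −E−N against +E+N in 2i, r was 0.378, -0.0141 and 0.355 for replicates 1, 2 and 3, so replicate 2 did not. FCS has 2 pairs only. Every called member was named with its values by library, as CPM or, at low levels, counts, and the others by range or highest count. Members, gene lists and tests were chosen with earlier results of these data known.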

Additional observations from a re-analysis of the deposited data

Results flagged for a closer look

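For 7 members the −E−N response differed between media by the test of that difference in the 8-group fit (edgeR's quasi-likelihood test, adjusted p under 0.01). The log2 response in 2i minus that in FCS was 4.65 for Peg10, 2.50 for Peg3, 1.61 for Zim1, 1.58 for Sfmbt2 and 0.65 for Snrpn, and -1.90 for Plagl1 and -1.77 for Nnat. In Peg10 and Peg3 the response was positive in all 5 −E−N libraries. For Snrpn every −E−N library lay below every +E+N library in FCS and above every one in 2i. The labels do not say whether the media were grown side by side.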

How the results depend on the processing

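Of 666 member values under alternatives other than leaving out a library, 558 kept direction and side of the limit, 30 lost a call, 78 gained one and 0 reversed. Of 1392 values with a library left out, 1284 kept both, 96 lost a call, 10 gained one and 2 reversed. These were the Peg10 interaction in FCS, -0.019 without −E−N replicate 2 and otherwise up to 0.64, and the Calcr difference between media, 0.17 without 2i +E+N replicate 3 and otherwise down to -2.55, neither called. The number of members called moved by more than 1.5 times as follows, and the cause was not tested. In −E in FCS it was 5, against 8 with DESeq2, 10 without the filter, 9 with the replicate block and 3 with limma on log2(TPM + 0.1). In −N in FCS it was 1, against 6, 8 and 7 with DESeq2, without the filter and with the replicate block. In −E−N against −N in 2i it was 5, against 8 with the block. For the interaction in FCS it was 0, against 1 without the filter, and in 2i 0, against 2 with DESeq2, 2 without the filter and 3 with the block. With 1 library left out the counts ran from 2 to 6 (−E in FCS), 1 to 2 (−N in FCS), 13 to 15 (−E−N in FCS), 4 to 8 (−E−N against −N in FCS), 0 to 0 (interaction in FCS and −E in 2i), 2 to 7 (−N in 2i), 8 to 10 (−E−N in 2i), 3 to 5 (−E−N against −N in 2i), 0 to 1 (interaction in 2i), 15 to 19 (medium) and 5 to 7 (difference between media). In FCS, with 2 replicates, a group that loses 1 is left with a lone library assumed to vary like the others. Same-numbered FCS samples correlated at r of 0.0771 to 0.462 over 2 pairs only, so the block there rests on a shared number. On log2(TPM + 1) the median of all genes moved to 0.13 for −E−N in FCS and to -0.12 for the difference between media. Dcn, Klf14, Tfpi2, Kcnk9 and Rasgrf1, and Calcr and Magel2 in 2i, are limited by counts.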

Other observations

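Genes that neighbour the imprinted regions, or are imprinted in some tissues only, were also measured, and 11 of 14 listed were tested. In FCS −E−N 3 rose and 1 fell (27.3% and 9.09%, against 12.4% and 6.4% of all genes). In 2i −E−N 4 rose and 1 fell (36.4% and 9.09%, against 9.06% and 9.56%). Atp10a, an aminophospholipid-transporting ATPase next to Ube3a, rose in FCS in −E (log2 change 0.72 ± 0.13 SE, adjusted p = 0.00651) and in −E−N (log2 change 1.01 ± 0.13 SE, adjusted p = 0.000391), and in 2i in −E−N (log2 change 3.00 ± 0.47 SE, adjusted p = 0.000264). Pon2, a paraoxonase of the Peg10 region, rose in −E−N in FCS (log2 change 0.84 ± 0.15 SE, adjusted p = 0.00195) and in 2i (log2 change 1.22 ± 0.30 SE, adjusted p = 0.00546). Casd1, a sialic acid acetyltransferase beside Sgce, rose in −E−N in 2i (log2 change 0.95 ± 0.16 SE, adjusted p = 0.000457). Snhg14, the long noncoding host transcript downstream of Snrpn, rose in 2i in −N (log2 change 0.73 ± 0.12 SE, adjusted p = 0.00205) and in −E−N (log2 change 1.10 ± 0.12 SE, adjusted p = 1.57e-05). Slc38a4, an amino acid transporter, rose in −E−N in FCS (log2 change 0.59 ± 0.07 SE, adjusted p = 0.000161), and Zfp264, a zinc-finger gene of the Peg3 region, fell there (log2 change -2.02 ± 0.35 SE, adjusted p = 0.00172), where it met the filter on low counts in +E+N and not in −E−N. Ago2, an Argonaute protein near Trappc9, fell in 2i in −E (log2 change -0.67 ± 0.11 SE, adjusted p = 0.00473) and in −E−N (log2 change -1.24 ± 0.11 SE, adjusted p = 5.13e-06). All are from edgeR's quasi-likelihood test.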
